A study of Mus musculus with 2 samples.

Results

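Binding of the RNA helicase UPF1 was described over 40 genes of the Wnt pathway in mouse neural progenitor cells. The genes were taken from a list of named pathway members: 15 receptors and co-receptors, 11 genes of the β-catenin destruction complex and its regulators, 7 transcription factors and cofactors, and 7 genes for Dishevelled proteins, receptor turnover and ligand export. A binding cluster, meaning a short interval where immunoprecipitated RNA fragments pile up, was counted for a gene when it overlapped the gene's RefSeq locus on the gene's strand. By this rule 37 of the 40 genes held at least 1 cluster, among 10015 genes with a cluster of 49997 annotated. The 37 genes held 720 of the 123349 clusters in the deposited list.

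The assay was enhanced CLIP (eCLIP), in which a protein is pulled down with the RNA fragments bound to it and compared with the unselected RNA of the same lysate, the input. The cells were labelled as neural progenitor cells from the cortex with the genotype Upf2fl/fl, so both libraries carry a loxP-flanked allele of Upf2, a partner of UPF1 in mRNA decay. Both are also labelled MOCK, a word that the labels do not explain, and no Cre, age or strain is named there. There was 1 UPF1 immunoprecipitate and 1 input library, so no value below has a replicate, and no second genotype or treatment was compared. RNA was cut with RNase I before the pull-down. In a bulk lysate, fewer cells of a type and less RNA per cell cannot be told apart.

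Clusters were found at 11 of 12 progenitor markers, with Prom1 lacking one, at 4 of 8 neuronal markers, at 5 of 5 astrocyte markers and at 5 of 6 oligodendrocyte-lineage markers, with Mbp lacking one. Clusters enriched by the rule given below were found at 6, 2, 5 and 5 of these markers in turn. None of 5 microglial markers and 1 of 6 vessel and fibroblast markers held a cluster. A cluster needs RNA as well as binding, so these counts show which transcripts were present and do not measure purity. The part that other cell types had in the Wnt values was not tested.

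Wnt proteins are secreted lipid-modified ligands that bind Frizzled receptors together with the co-receptors LRP5 and LRP6. Without ligand, a destruction complex built on Axin and APC phosphorylates β-catenin through the kinases CK1α and GSK3 and marks it for ubiquitination. With ligand, Dishevelled recruits Axin to the membrane, β-catenin accumulates, and it joins TCF/LEF factors on DNA. In the developing cortex the pathway is known for its part in progenitor proliferation and regional patterning. UPF1 is an ATP-dependent helicase central to nonsense-mediated mRNA decay, and it is known to bind along transcripts and to be found most often on 3′ untranslated regions.

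Each cluster carries the authors' log2 fold of immunoprecipitate over input and the −log10 of the authors' p-value for that fold. A cluster was called enriched at a log2 fold of at least 3 with a −log10 p of at least 3. The p-value weighs reads within this pair of libraries only and says nothing of the spread between cultures. Reads per cluster were not in the list, but 99.6% of the clusters with a positive fold had a fold and p that a pair of whole read counts returned, and those counts are given below as immunoprecipitate against input. On that scale the immunoprecipitate library was 2.03 times as deep as the input. Intervals are exact 95% Clopper-Pearson limits from these counts and cover counting error only. An input count of 1 may stand for no read at all, since no count came out below 1.

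Enriched clusters lay in 14 of the 37 Wnt genes with a cluster, 37.8% (Wilson 95% interval 24.1 to 53.9%), beside 33.1% of all genes with a cluster. They numbered 85 of 720 clusters, 11.8%, beside 11.6% of all clusters. As a whole the list was therefore close to the background in both measures. The median over genes of the highest log2 fold was 2.78 for the Wnt genes and 2.44 for all genes. The genes differed widely among themselves, from 0.56 in Lrp5 and Rnf43 to 6.95 in Tnks. A few genes held most of the binding: Gsk3b, Tnks, Fzd3, Apc2, Tnks2 and Csnk1a1 together had 67 of the 85 enriched clusters, 78.8%.

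**Figure D1:**
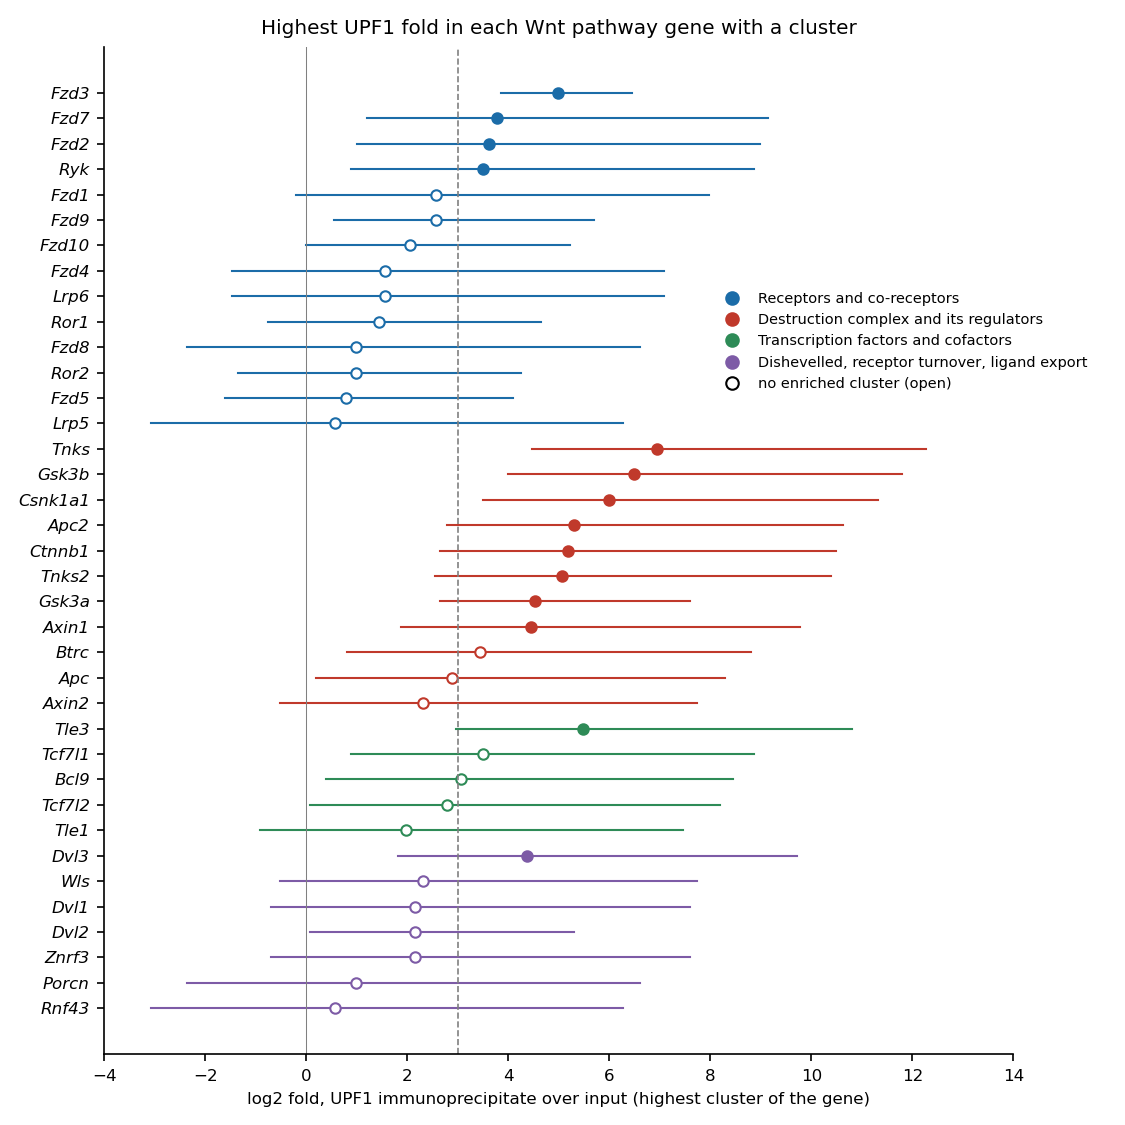
Highest log2 fold of UPF1 immunoprecipitate over input (x axis) in each of the 37 Wnt genes with a cluster (y axis), with exact 95% counting intervals as lines, filled points for genes with an enriched cluster and a dashed line at a log2 fold of 3. The 8 filled destruction complex genes run from 4.44 to 6.95, and the filled point of Ryk is at 3.50 although its enriched cluster is another one at 3.06.

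By role, which was not tested, the counts were as follows. In the destruction complex 8 of 11 genes had an enriched cluster, 72.7% (43.4 to 90.3%). Among receptors it was 4 of 14, 28.6% (11.7 to 54.6%), among transcription factors and cofactors 1 of 5, and among the remaining members 1 of 7. The intervals of the destruction complex and the receptors overlap. Genes with many clusters have more chances to hold an enriched one: of all genes with 10 or more clusters, 59.2% did. Among the Wnt genes with that many clusters it was 10 of 19, 52.6%. By role it was 6 of 8 in the destruction complex and 2 of 4 in the receptors. It was 1 of 4 in the transcription factors and cofactors and 1 of 3 in the remaining members. Of all genes with 50 or more clusters 64.2% had an enriched one, and of the 5 such Wnt genes (Tcf7l2, Apc, Tcf7l1, Tle1 and Gsk3b) only Gsk3b did. The median highest log2 fold was 5.06 in the destruction complex, 3.06 in the transcription factors, 2.15 in the remaining members and 1.81 in the receptors.

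**Figure D2:**
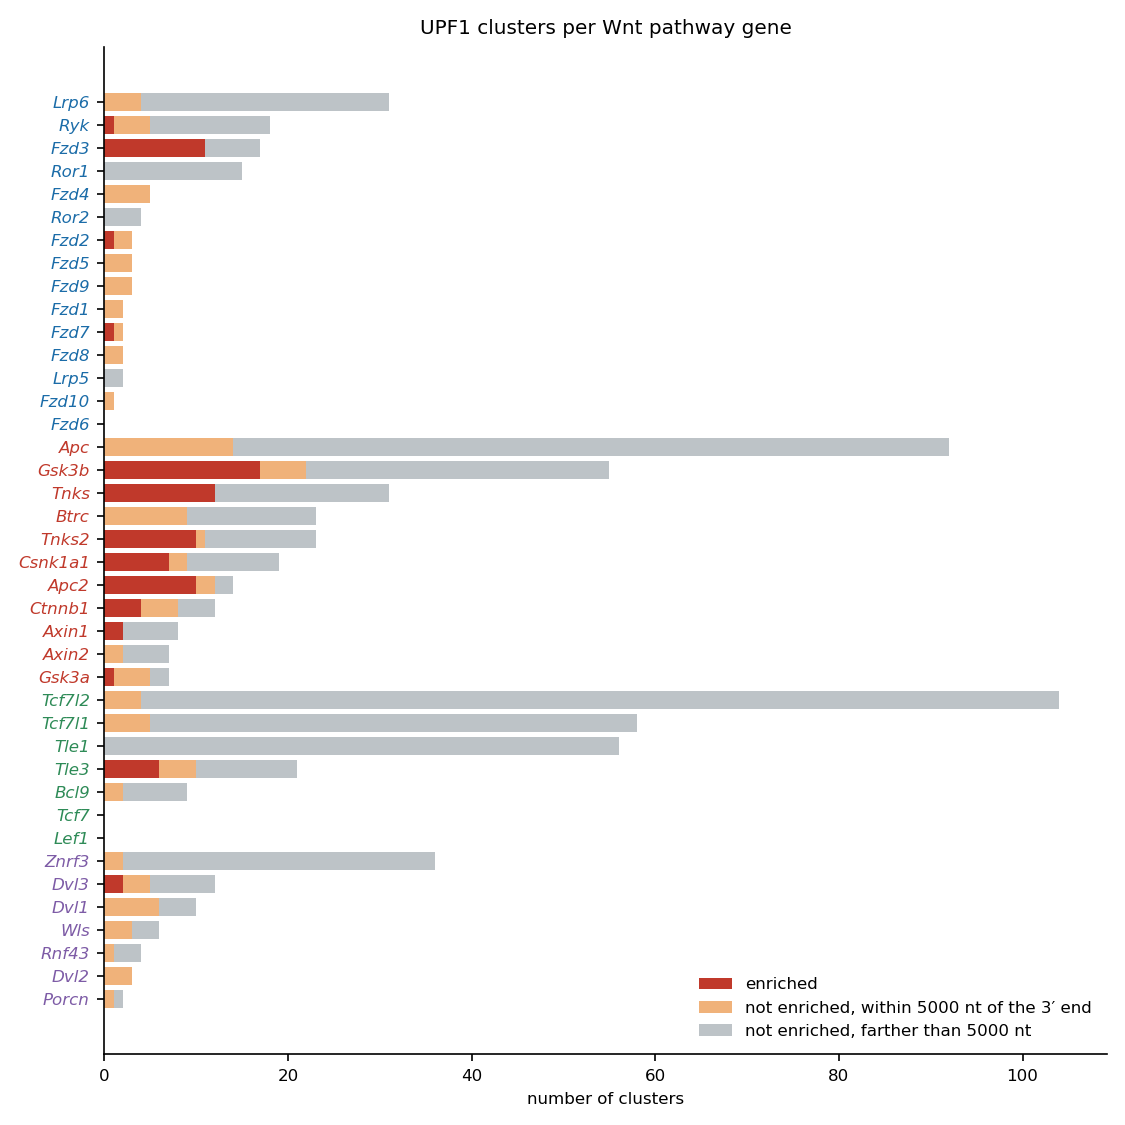
Number of clusters (x axis) in each of the 40 genes (y axis, gene names coloured by role), split into enriched clusters, clusters not enriched within 5000 nt of the 3′ end of the locus and clusters not enriched farther away. Tcf7l2 has 104 clusters and Apc 92 with none enriched, while 11 of 17 in Fzd3 and 10 of 14 in Apc2 are enriched.

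Among the receptors, the Frizzled genes encode the seven-pass membrane proteins that bind Wnt, and 9 of the 10 had a cluster. Fzd6 had none. Fzd3, whose protein is known for its part in axon tract formation and planar polarity, stood apart within the family with 11 of 17 clusters enriched, covering 1363 nt, the most of any member. Its highest log2 fold was 4.99 (387 reads against 6, interval 3.85 to 6.44), at chr14:65201632-65201825 on the minus strand of GRCm38.p6. The reads rested largely on these clusters, which held 95.5% of the immunoprecipitate reads counted at the gene.

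The enriched clusters of Fzd3 all lay farther than 5000 nt from the 3′ end. None of its 17 clusters lay in the last 8784 nt of the locus. A group of 5 enriched clusters at 8784 to 9728 nt from the 3′ end had log2 folds of 4.45, 4.59, 4.99, 3.93 and 4.39. The other 6 enriched clusters lay much farther toward the 5′ end. One at 43360 nt had a log2 fold of 3.62 (25 reads against 1), and those at 47351 and 47450 nt had 4.30 (40 against 1) and 3.78 (28 against 1). The remaining 3, at 60534 to 60812 nt, had 3.78 (28 against 1), 3.78 (28 against 1) and 3.26 (39 against 2). Of all clusters farther than 20000 nt from a 3′ end, 0.478% were enriched, and 6 of the 9 in Fzd3 were, 66.7%. Of those 6, 5 stand on an input count of 1, and 1 of 9 would be left if such clusters were not called. Only 4 of 2159 genes with 5 or more such far clusters had over 50% of them enriched, namely Fzd3, Ccni, Ntrk2 and Pde4dip. Distances here are genomic and include introns, since the locus table holds no exons.

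The other Frizzled genes gave few reads. Fzd2 (chr11:102604431-102608058, plus strand) had log2 folds of 3.62 (25 reads against 1), 2.56 (24 against 2) and 2.15 (9 against 1), and only the first was enriched. Fzd7 (chr1:59482147-59486955, plus strand) had 3.78 (28 against 1, interval 1.19 to 9.14) and 2.56 (12 against 1), of which the first was enriched. Both calls rest on an input count of 1. Fzd9 reached 2.56 in 2 of its 3 clusters, at 24 reads against 2 and 12 against 1, and Fzd1 reached 2.56 at 12 against 1. The highest values in Fzd10, Fzd4, Fzd8 and Fzd5 were 2.06, 1.56, 0.98 and 0.78, none of them enriched. Between Fzd2, Fzd7 and these paralogues the counting intervals overlap, so the data do not separate them.

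Of the 5 co-receptor and alternative receptor genes, 1 had an enriched cluster. Lrp5, Lrp6, Ror1 and Ror2 had no cluster of positive fold with enough reads to be called. Lrp6, the co-receptor that is phosphorylated on ligand binding, had 31 clusters, of which none was enriched. Of the 31, 26 lay farther than 20000 nt from the 3′ end, where 0.478% of all clusters were enriched. The highest log2 fold of Lrp6 was 1.56, the median 0.30, and 13 clusters were at or below 0. Its paralogue Lrp5 had 2 clusters, both at 0.56, the value of 3 reads against 1. Ror1 and Ror2, receptor tyrosine kinases of the β-catenin-independent branch, had 15 and 4 clusters with highest log2 folds of 1.44 and 0.98. Every cluster of Ror1 lay at least 65231 nt from the 3′ end, and 5 of the 15 were in places where another locus overlaps. Ryk, a Wnt receptor with an inactive kinase domain (chr9:102834920-102908307, plus strand), had 1 enriched cluster of 18, at 3.06 with 34 reads against 2 and 716 nt from the 3′ end. Its highest log2 fold, 3.50, belonged to another cluster with 23 reads against 1, whose −log10 p of 2.79 missed the threshold. With a minimum log2 fold of 4, or a minimum −log10 p of 5, Fzd3 was the 1 receptor that kept an enriched cluster.

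Of the scaffold genes of the destruction complex, Apc2 and Axin1 had enriched clusters and their paralogues Apc and Axin2 had none. Apc2, the APC paralogue expressed mainly in the nervous system (chr10:80295956-80318257, plus strand), had 10 of 14 clusters enriched, with log2 folds of 3.30 to 5.30 at 134 to 2184 nt from the 3′ end. The highest had 80 reads against 1 (interval 2.78 to 10.62). Apc, the tumour suppressor that scaffolds the complex, had 92 clusters and none enriched, a count of 0 that allows up to 3.26%. That limit takes clusters as independent, which those of 1 gene are not. Of the 92, 66 lay farther than 20000 nt from the 3′ end, where 0.478% of all clusters were enriched. The highest log2 fold of Apc was 2.88 (15 reads against 1, interval 0.18 to 8.28). Its 14 clusters within 5000 nt of the 3′ end had a median of 1.24, beside 4.19 over 12 in Apc2. Among the Apc clusters of positive fold, the 3 deepest had 36 reads against 14, 33 against 3 and 26 against 2. Their log2 folds were 0.34, 2.44 and 2.68, under the threshold at depths where clusters of other genes passed. The intervals of the 2 highest folds overlap.

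Axin1, the scaffold whose amount limits the complex (chr17:26131217-26195811, plus strand), had 2 enriched clusters of 8, at 4.44 (44 reads against 1) and 4.37 (42 against 1), 142 and 366 nt from the 3′ end. Its other 6 clusters were all far from the 3′ end and reached at most 2.15. Axin2, a paralogue that is itself a target of the pathway, reached 2.30 (10 reads against 1) in 7 clusters, and none was enriched. The interval of Axin1, 1.88 to 9.77, includes the value of Axin2, which had no cluster with enough reads to be called, and both calls in Axin1 rest on an input count of 1.

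The kinases that phosphorylate β-catenin all had enriched clusters. Gsk3b (chr16:38089001-38246084, plus strand) had 17 of 55, more than any other Wnt gene. The highest, at chr16:38243560-38243668, had a log2 fold of 6.48 (182 reads against 1, interval 3.99 to 11.80). The 17 lay within a span of 3113 nt, 2270 to 5336 nt from the 3′ end by midpoint, and had a median log2 fold of 4.76. Folds were lower toward the end of the gene, where the last 2 clusters, at 1652 and 693 nt, had 2.09 (52 reads against 6) and 1.09 (52 against 12) and were not enriched. None of the 30 clusters farther than 20000 nt was enriched. The one of these at 3.50 had 23 reads against 1, and the lowest was −3.31.

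Csnk1a1, which encodes the priming kinase CK1α, had 7 of 19 clusters enriched at 1370 to 2710 nt from the 3′ end. Its highest log2 fold was 6.0 (130 reads against 1, interval 3.49 to 11.31). The 7 held 86.1% of the immunoprecipitate reads counted in the gene's clusters of positive fold. Gsk3a, the second GSK3 gene (chr7:25228258-25237851, minus strand), had 1 enriched cluster of 7, at 4.53 (94 reads against 2, interval 2.64 to 7.60) and 248 nt from the 3′ end. Clusters at 3.44 (22 reads against 1), 3.06 (17 against 1) and 2.78 (14 against 1) in Gsk3a were not called. Whether Gsk3a and Gsk3b differ in their highest fold cannot be read from these intervals, which overlap.

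The starts of clusters in Gsk3a and 2 other genes are shown because they let the sequence at a called site be set beside that at sites that were not called. Each is 30 bases of GRCm38.p6 on the gene's strand, 5′ to 3′, with the 15 bases before the cluster in lower case and the first 15 bases of the cluster in capitals. They come from RefSeq promoter windows, the 1 source of mouse sequence used here, so only clusters near some gene's start can be shown. The Gsk3a sites are readable because its 3′ end overlaps the start of 9130221H12Rik, annotated on the opposite strand. The first is the enriched Gsk3a cluster, the next 2 are its neighbours at 2.78 and 3.06, and the last 2 lie at the 5′ ends of Ctnnb1 (−0.35) and Tcf7l1 (1.56).
Gsk3a, 4.53, chr7:25228546-25228575, minus strand: ggctaccactccttcCCTCCCCCCCTCTCC
Gsk3a, 2.78, chr7:25228638-25228667, minus strand: attttaactgtttgtAGGGGAGGGGAGAAA
Gsk3a, 3.06, chr7:25228714-25228743, minus strand: cagaggtaaatgaacTACCCCCAGCATCTA
Ctnnb1, −0.35, chr9:120933482-120933511, plus strand: catcttaagccctcgCTCGGTGGCGGCCGC
Tcf7l1, 1.56, chr6:72789005-72789034, minus strand: gcgagagggagggagGGGCGCCGGGCCGGG
Over the bases that could be read, GC content was 60.2% in the enriched Gsk3a cluster and 60% and 61.4% in its 2 neighbours, so GC content was alike, while the bases themselves were not, as the capitals of the first 2 sequences show. It was 77.6% at the start of Ctnnb1 and 91.7% at the start of Tcf7l1, over 76 and 24 readable bases. Readable clusters of Apc2, Axin1 and Fzd9, not called and not shown, had 64.7%, 88.2% and 80.8% over 51, 17 and 26 bases. With 1 enriched cluster readable, these values describe single sites.

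Ctnnb1 encodes β-catenin itself (chr9:120933400-120960507, plus strand) and had 4 of 12 clusters enriched. They lay within 682 nt of the 3′ end, at log2 folds of 5.17 (73 reads against 1), 3.44 (88 against 4), 3.58 (292 against 12) and 3.93 (93 against 3). Between them lay clusters of 2.91 (214 reads against 14) and 2.26 (39 against 4) that were under the fold threshold. The other 6 clusters of the gene ran from −0.76 to 1.78.

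Tankyrases are poly-ADP-ribose polymerases that mark Axin for degradation, and both were strongly bound. Tnks (chr8:34829179-34965690, minus strand) held the highest log2 fold of all Wnt genes, 6.95 (252 reads against 1, interval 4.46 to 12.26), at chr8:34830332-34830444. By highest fold it ranked 62 among all genes with a cluster, and Gsk3b ranked 137. All 12 clusters of Tnks within 5000 nt of the 3′ end were enriched. Together they held 96.8% of the immunoprecipitate reads counted in the Tnks clusters of positive fold. The 19 clusters farther away reached at most 2.44, with a median of 0.30. Tnks2 (chr19:36834129-36893477, plus strand) had 10 of 11 such clusters enriched, at 669 to 2140 nt, with a highest log2 fold of 5.06 (68 reads against 1, interval 2.54 to 10.39). Its cluster nearest the 3′ end, at 278 nt, had 1.78 (28 against 4). The intervals of the 2 tankyrases overlap. The lower limit of Tnks lay above the upper limits of Fzd5 and Ror2, 4.09 and 4.25, and of no other Wnt gene.

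Btrc encodes the F-box protein β-TrCP, which recognises phosphorylated β-catenin. It had 23 clusters and none enriched (chr19:45363688-45533343, plus strand). Its 9 clusters within 5000 nt of the 3′ end had log2 folds of 1.56 to 3.44 and a median of 2.44, but none had more than 22 reads. The highest, 22 reads against 1, had a −log10 p of 2.79 and an interval of 0.81 to 8.80.

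**Figure D3:**
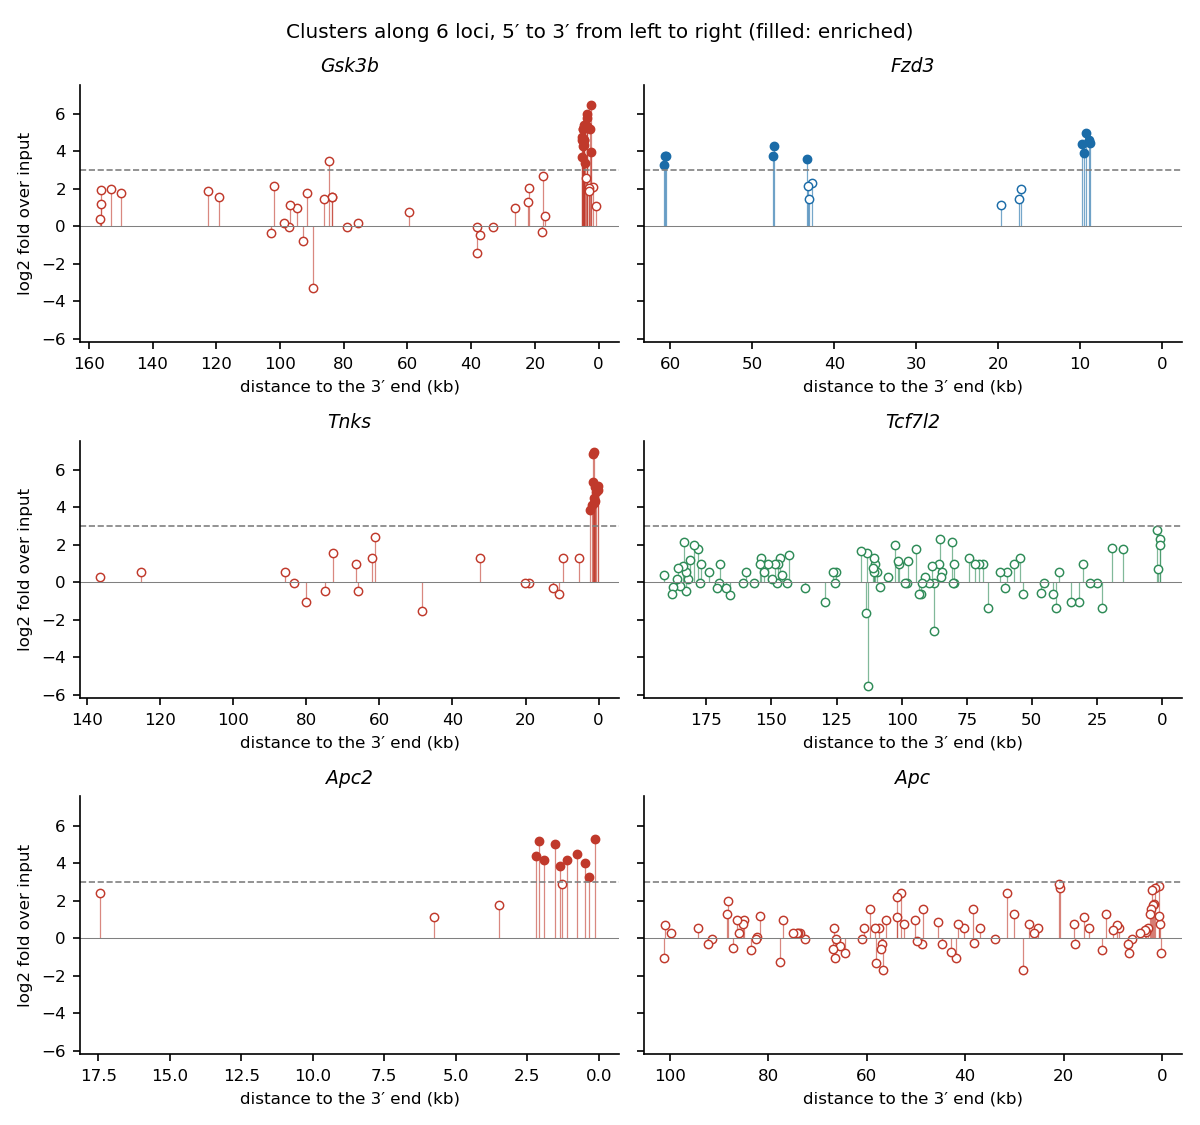
Log2 fold over input (y axis) of every cluster against its distance to the 3′ end of the locus in kb (x axis, 5′ to 3′ from left to right) in 6 genes, with filled points for enriched clusters and a dashed line at 3. Enriched clusters gather near the 3′ end in Gsk3b, Tnks and Apc2, lie at 8784 to 60812 nt in Fzd3, and are not seen among 104 clusters of Tcf7l2 or 92 of Apc.

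The TCF/LEF factors, the DNA-binding partners of β-catenin, had no enriched cluster. Tcf7 and Lef1 had no cluster on their strand at all. Tcf7l2 (chr19:55741797-55933659, plus strand) had 104 clusters, the most of any member, and Tcf7l1 (chr6:72626371-72789045, minus strand) had 58. With 0 of these 162 enriched, a share of up to 1.85% is allowed by counting if clusters are taken as independent. Most clusters of both genes lay far inside the locus. Farther than 20000 nt from the 3′ end were 98 of 104 in Tcf7l2 and 46 of 58 in Tcf7l1. At that distance 0.478% of all clusters were enriched. In Tcf7l2, 41 clusters had a log2 fold at or below 0, the lowest being −5.55, so input reads were at least as frequent there.

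Near their 3′ ends these 2 genes had higher values that did not pass. The 4 clusters of Tcf7l2 within 5000 nt had log2 folds of 2.30, 1.98, 0.71 and 2.78, with 14 reads against 1 behind the highest. The 5 in Tcf7l1 had 2.56, 2.56, 2.73, 3.50 and 3.22, where 3.50 stood on 23 reads against 1 and 3.22 on 19 against 1. The cluster at 2.73 had 27 reads against 2. Of the 58 clusters of Tcf7l1, 12 lay where another locus overlaps.

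Of the 2 Groucho-family corepressor genes, whose proteins TCF factors recruit, 1 had enriched clusters. Tle3 (chr9:61372326-61418497, plus strand) had 6 of 21 clusters enriched, at 624 to 1494 nt from the 3′ end, with log2 folds of 5.48, 4.56, 5.02, 3.88, 4.86 and 4.39. The highest had 91 reads against 1 (interval 2.97 to 10.80). Tle1 (chr4:72109945-72200989, minus strand) had 56 clusters and none enriched, which allows up to 5.36% if clusters are taken as independent. Of the 56, 48 lay farther than 20000 nt from the 3′ end, where 0.478% of all clusters were enriched. The highest log2 fold of Tle1 was 1.98 (8 reads against 1), 25 of its clusters were at or below 0, and none lay within 7504 nt of the 3′ end. Bcl9, a β-catenin coactivator, had 9 clusters, and its highest log2 fold of 3.06 (17 reads against 1) did not pass the p threshold.

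Dishevelled proteins relay the signal from Frizzled, and of the 3 genes only Dvl3 (chr16:20516949-20534013, plus strand) had enriched clusters. There were 2 of 12, at 4.37 (42 reads against 1, interval 1.81 to 9.71) and 4.02 (66 against 2), 1686 and 1567 nt from the 3′ end. Dvl1 with 10 clusters and Dvl2 with 3 both had a highest log2 fold of 2.15, from 9 reads against 1 and 18 against 2. Both values lie inside the interval of Dvl3. Znrf3 and Rnf43, ubiquitin ligases that remove Frizzled from the membrane, had 36 and 4 clusters with highest log2 folds of 2.15 and 0.56. In Znrf3, 32 of the 36 lay farther than 20000 nt from the 3′ end, where 0.478% of all clusters were enriched. Wls, which carries Wnt to the cell surface, reached 2.30 in 6 clusters, and Porcn, the acyltransferase that lipidates Wnt, reached 0.98 in 2. None of these 4 genes had an enriched cluster.

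Enriched clusters gathered toward the 3′ ends. Of the 85, 70 lay within 5000 nt of the 3′ end, 82.4% (Wilson 72.9 to 89.0%), beside 91.8% of all enriched clusters. The other 15 were 11 in Fzd3 and 4 in Gsk3b, and without Fzd3 the share was 94.6%. Of the Wnt genes' 174 clusters within 5000 nt, 40.2% were enriched (33.2 to 47.7%), beside 34.0% of all clusters there. At that place 59 of 102 were enriched in the destruction complex, 57.8% (48.1 to 67.0%), and 3 of 30 in the receptors (3.46 to 25.6%). Clusters of 1 gene share its RNA and are not independent, so these intervals are narrower than the spread between genes. The median log2 fold was 2.70 within 5000 nt and 0.56 beyond it.

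Within that stretch the last 1000 nt were not the place of most frequent enrichment. In the Wnt genes 34.4% of 61 clusters there were enriched, against 59.6% of 52 at 1000 to 2000 nt and 29.5% of 61 at 2000 to 5000 nt. Over all genes the same bins gave 35.4%, 39.7% and 28.0%. The enriched clusters of the Wnt genes in these bins came from only 9, 7 and 5 genes in turn. At the opposite end, 25 clusters in 16 Wnt genes lay in the first 1000 nt of the locus. None was enriched, which allows up to 12%, beside 2.34% of all clusters there, and their log2 folds ran from −1.02 to 2.30 with a median of 0.78.

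**Figure D4:**
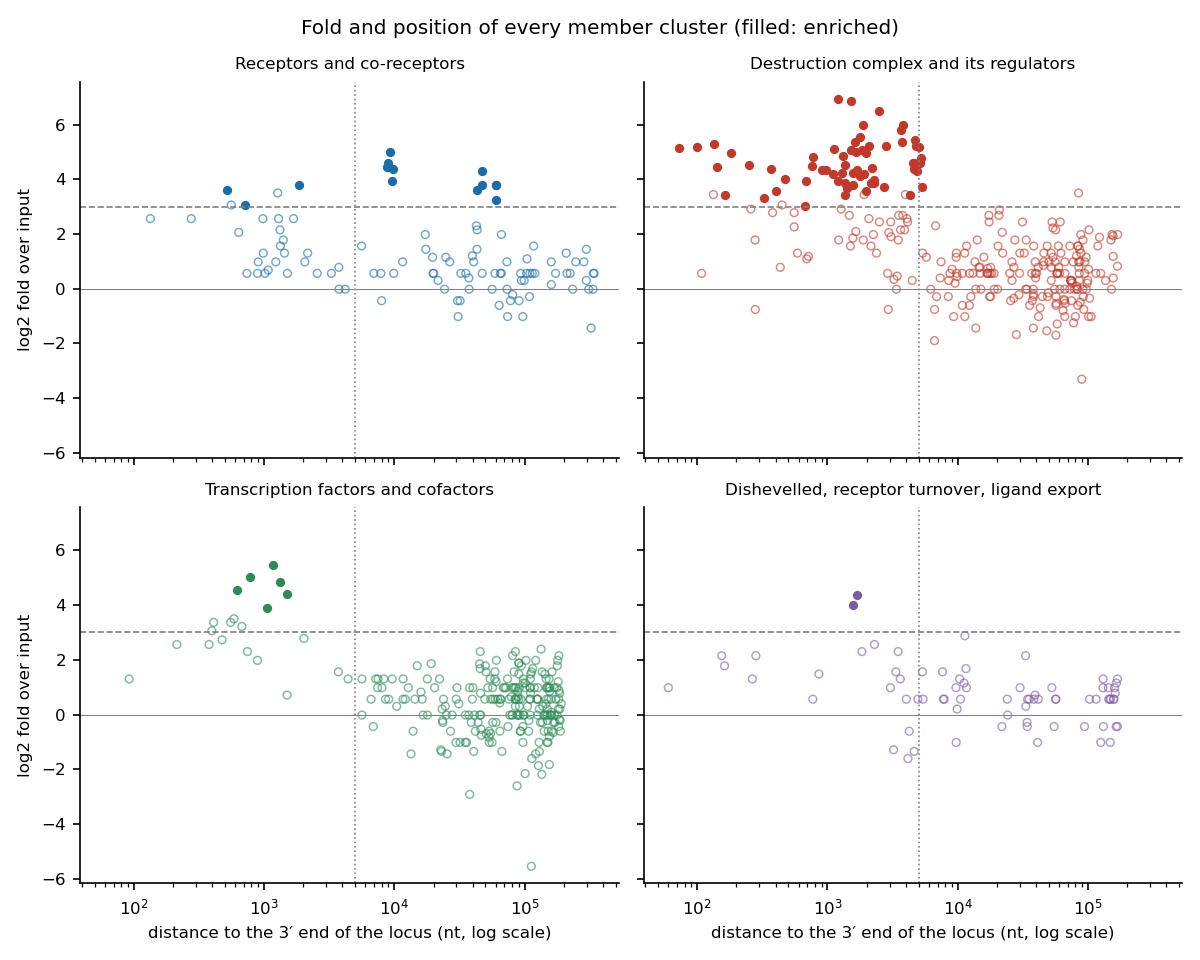
Log2 fold over input (y axis) against distance to the 3′ end of the locus (x axis, nt, log scale) for all 720 clusters in 4 panels by role, with filled points for enriched clusters, a dashed line at a log2 fold of 3 and a dotted line at 5000 nt. Of the 85 filled points 70 lie left of the dotted line, and 11 of the 15 to its right belong to Fzd3.

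A call needed a minimum number of immunoprecipitate reads. In the whole list no cluster with reconstructed counts and under 24 immunoprecipitate reads was enriched, since with 23 reads against 1 the −log10 p was 2.79. Of the clusters with reconstructed counts of at least 24 reads, 85 of 111 in the Wnt genes were enriched, 76.6%, beside 74.5% of all such clusters. By role these shares were 82.4% in the receptors (14 of 17) and 77.8% in the destruction complex (63 of 81). They were 6 of 10 in the transcription factors and 2 of 3 in the remaining members. Fzd3 alone gave 11 of the 17 receptor clusters, and all 11 were enriched. The call uses the same reads, and the 200 Wnt clusters at or below a log2 fold of 0 have no counts. Nor do the 243 clusters of the whole list whose −log10 p stood at the maximum of 400. These shares therefore cover clusters of positive fold only and do not show how often the input was low at a given depth. Of the 23 Wnt genes with clusters but none enriched, 19 had no cluster of positive fold with 24 reads, so none there could be called. Whether little binding or little RNA lay behind this was not tested. The 4 that had one were Fzd9, Apc, Tcf7l1 and Tcf7l2.

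Some members share ground with other genes. Apc and Gsk3a each had 2 clusters in places where another locus overlaps, and Tcf7l2 and Rnf43 each had 1. The locus of Tcf7 held 1 enriched cluster on the opposite strand, which belongs to the overlapping gene Skp1 and was not counted for Tcf7. Close paralogues such as the Frizzled genes can share short stretches of sequence, and how the authors treated reads with several matches is not given in the sources used here.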

How the data were processed

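The authors' deposited list gives each cluster's mm10 position, strand, log2 fold over input and −log10 p-value. UMI-tools, cutadapt and STAR are named in the submitters' processing notes, and the label mm10 is the same build as GRCm38. No label or header names the cluster caller, its filters or the formulas for fold and p. Clusters were assigned with the RefSeq GRCm38.p6 locus table, and all 40 members matched. Strand came from the RefSeq promoter table for 27 members and from the clusters themselves, where at least 80% of 2 or more agreed, for 12; Fzd6 had neither. A cluster that overlapped several loci went to the one sharing the most bases with it. Where that locus was known to lie on the other strand, the cluster was left out. Ties were settled by strand, then by the sole protein-coding locus. Distances run from the cluster midpoint.

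Read counts were reconstructed by taking the commonest fold, 0.56, as 3 reads against 1. The method was tested on simulated data, where 98.4% of 1640 pairs were recovered exactly. A match needed whole counts that gave the fold, and a −log10 p within 0.05 or 1%, whichever was larger. For 400 sampled clusters of the deposited list this scale matched 100%, and 6 other scales at most 56.8%. Python 3.11.15, pandas 2.3.3 and scipy 1.17.1 were used.

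The members, role lists and other pathway lists were chosen with earlier results of these data known. All members are accounted for. Described in full were the 10 with the most enriched nucleotides, the 5 with the most clusters and none enriched, members unlike a paralogue, and those in overlapping loci. For each other pathway list the 3 highest folds among enriched genes are named.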

Additional observations from a re-analysis of the deposited data

How the results depend on the processing

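No paired analysis was possible because each group has 1 library, and no replicate could be left out. Of the 14 Wnt genes with an enriched cluster, 11 remained at a minimum log2 fold of 4 or a minimum −log10 p of 5 (Fzd2, Fzd7 and Ryk were lost), beside 23.7% and 25.3% of all genes with a cluster, and 11 when a single input read was taken as too few to call (Axin1, Fzd2 and Fzd7 were lost), beside 21.0%. That last choice left 45 of 85 enriched clusters. Receptors with an enriched cluster numbered 4, and 1, 1 and 2 under these choices in turn. The share of enriched clusters near the 3′ end, 82.4%, was 61.2% with a limit of 2000 nt, 92.9% with 10000 nt and 94.6% without Fzd3, a choice made after seeing the data. Beside 91.8% over all genes, it was thus lower with Fzd3 and higher without it. The median highest log2 fold of 2.78, over 37 genes, was 1.3 when all clusters of a gene were averaged by length. Over clusters that passed the p threshold it was 5.03, but only the 14 genes with such a cluster entered that median. Reads behind an input count of 1 set the width of most intervals, and the depth of the whole libraries is not analysed here.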

Other observations

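Pathway genes outside the 40 were read from 7 lists with 141 symbols, of which 140 matched the locus table. Of the 89 with a cluster, 42 had an enriched one, 47.2% (Wilson 37.2 to 57.5%), beside 33.1% of all genes with a cluster. By cluster, 186 of 1526 were enriched, 12.2%, beside 11.6% of all clusters. These genes held a median of 10 clusters each, beside 6 over all genes, and more clusters give more chances of an enriched one. Whether they differ from genes with as many clusters was not tested. Their median highest log2 fold was 3.22. Only 4 of 19 Wnt ligand genes had a cluster. Wnt7b, a ligand made in the developing forebrain, had 16 of 23 clusters enriched and a highest log2 fold of 6.37 (168 reads against 1, interval 3.87 to 11.68). Wnt7a had 2 of 17 and 4.15, while Wnt5a and Wnt5b reached 1.98 and 1.30 with none enriched. Of 6 secreted modulators with a cluster, 1 was enriched: Sfrp1, a soluble Wnt-binding protein, with 11 of 14 clusters and 5.11. Of 9 receptor-level modulators with a cluster, 5 were enriched, led by Lrp4 (6.33), the pseudokinase receptor gene Ptk7 (4.81) and the Wnt inhibitor gene Apcdd1 (4.45). Of 11 planar polarity genes with a cluster, 5 were enriched, led by Vangl2 (5.44), Celsr1 (4.37) and Celsr2 (4.15).

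Inside the cell, 14 of 29 further cytoplasmic genes with a cluster were enriched. Fbxw11, which encodes the second β-TrCP protein, had 8 of 22 clusters enriched and a highest log2 fold of 7.85 (468 reads against 1, interval 5.36 to 13.15), beside 3.44 and none enriched in its paralogue Btrc. The intervals of the pair overlap. The casein kinase genes Csnk1d and Csnk2a1 followed with 6.62 and 6.07. Of 21 nuclear cofactor genes, 9 were enriched, led by Hipk2 (5.31), the corepressor gene Ctbp1 (5.28) and Hbp1 (5.26). Of 11 target genes with a cluster, 6 were enriched, led by Cd44 (5.28), the transcription factor gene Jun (4.76) and the adhesion gene Nrcam (4.44).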
